A study of Mus musculus with 6 samples.

Results

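The 6 genes described here encode the enzymes and direct regulators that take stored triglyceride apart inside the cell. They were chosen by symbol, as the lipases for triglyceride, diglyceride and monoglyceride with their coactivator and inhibitor, and lysosomal acid lipase. All 6 were found among the 54385 genes of the table, and all 6 passed the low-count filter that left 14767 genes to test. The samples were 3 libraries from Adcy3 knockout mice (Adcy3-FL/FL with Adipoq-wt/cre) and 3 from control mice (Adcy3-FL/FL with Adipoq-wt/wt), so both groups carried the floxed alleles and the groups differed in Cre. All mice were C57BL/6N, were fed chow for 20 weeks, and spent the last 24 hours at 5 °C before interscapular brown fat was taken. Cre is driven by the Adipoq promoter, which is active in brown and white adipocytes and not known for activity in the other cells of the depot. The labels do not give sex. The series' overall design text mentions a different depot and quadruplicates, so the labels of the single samples were used.

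In an adipocyte, triglyceride in the lipid droplet is cut stepwise. Pnpla2 (adipose triglyceride lipase) removes the first fatty acid, Lipe (hormone-sensitive lipase) acts mainly on the diglyceride that is left, and Mgll (monoglyceride lipase) frees the last fatty acid and glycerol. Abhd5 (also called CGI-58) switches Pnpla2 on and is held by the droplet coat protein perilipin until protein kinase A phosphorylates the coat. G0s2 binds Pnpla2 and blocks it. Lipa (lysosomal acid lipase) splits triglyceride and cholesteryl ester that reach the lysosome. Noradrenaline starts the droplet pathway through beta-adrenergic receptors, adenylyl cyclase and cyclic AMP, and the fatty acids released fuel and activate the uncoupling protein Ucp1 in brown fat mitochondria. Adcy3, the deleted gene, encodes an adenylyl cyclase. Much of this control acts on the proteins, which RNA counts do not measure.

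The members lie on 5 chromosomes (GRCm38, GENCODE vM21). Pnpla2 (ENSMUSG00000025509) spans chromosome 7 from 141455198 to 141460743 on the plus strand, and Lipe (ENSMUSG00000003123) spans 25379527 to 25398710 of the same chromosome on the minus strand. Mgll (ENSMUSG00000033174) lies on chromosome 6 from 88724412 to 88828360, plus strand. Abhd5 (ENSMUSG00000032540) lies on chromosome 9 from 122351608 to 122381524, plus strand. G0s2 (ENSMUSG00000009633) is a short gene on chromosome 1 from 193272161 to 193273217, minus strand, with 1 annotated transcript of 871 bases. Lipa (ENSMUSG00000024781) lies on chromosome 19 from 34492318 to 34527474, minus strand. Antisense genes share 15.6% of the exon bases of Lipe, 16.0% of those of Abhd5 and 3.29% of those of Mgll. Those antisense genes had 646, 25.1 and 220.4 estimated counts summed over the 6 libraries. Lipe, Abhd5 and Mgll themselves had at least 1945.6 per library. The sources used here do not say if counting used strand.

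Because Adcy3 makes cyclic AMP, the stretch before each start was searched for the cyclic AMP response element and for other sites named for factors of adipocytes. The windows are 220 bases long, from 250 to 31 bases before the RefSeq start (GRCm38.p6). All 6 members matched the RefSeq table, Lipe and Mgll with 2 starts each. The 4 windows below belong to the triglyceride lipase, its coactivator, its inhibitor and the monoglyceride lipase, and read 5′ to 3′ along the gene. Capitals mark the short form of the cyclic AMP response element (TGACG, on either strand) in Abhd5 and G0s2 and the E-box CACGTG in Mgll, while Pnpla2 holds neither.
Pnpla2, chr7:141454938-141455157, plus strand: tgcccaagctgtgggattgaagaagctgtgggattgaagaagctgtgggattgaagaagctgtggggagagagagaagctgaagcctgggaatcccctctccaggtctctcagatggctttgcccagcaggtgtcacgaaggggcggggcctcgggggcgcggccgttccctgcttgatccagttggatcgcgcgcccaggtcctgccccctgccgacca
Abhd5, chr9:122351366-122351585, plus strand: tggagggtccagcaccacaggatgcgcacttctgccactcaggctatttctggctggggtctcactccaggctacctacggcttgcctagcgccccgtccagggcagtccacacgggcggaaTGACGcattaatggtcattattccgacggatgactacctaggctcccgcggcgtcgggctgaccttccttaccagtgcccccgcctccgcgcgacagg
G0s2, chr1:193273219-193273438, minus strand: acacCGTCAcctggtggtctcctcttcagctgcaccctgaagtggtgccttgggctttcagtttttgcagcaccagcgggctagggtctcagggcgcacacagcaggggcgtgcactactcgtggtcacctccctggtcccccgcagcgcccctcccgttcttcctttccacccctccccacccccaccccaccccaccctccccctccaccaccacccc
Mgll, chr6:88724162-88724381, plus strand: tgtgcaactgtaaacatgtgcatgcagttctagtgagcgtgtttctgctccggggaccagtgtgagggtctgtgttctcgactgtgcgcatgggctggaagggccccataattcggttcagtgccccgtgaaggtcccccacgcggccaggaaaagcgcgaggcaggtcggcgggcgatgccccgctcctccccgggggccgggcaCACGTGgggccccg

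The full cyclic AMP response element TGACGTCA, which contains the short form, was in no member's window and in 1.14% of 32851 RefSeq windows. The short form was in 14.8% of all windows, and here in Abhd5 (bases 128 to 124 before the start) and G0s2 (246 to 242). CACGTG was in 5.01% of all windows, and here in Mgll (44 to 39) and in the more upstream window of Lipe (155 to 150). The FoxO motif TGTTTAC was in 2.81% of all windows, and here in the same Mgll window and in the other window of Lipe. The GC box GGGCGG (28.5% of all windows) was in a window of Pnpla2, Abhd5, Lipe and Mgll, and the TATA motif TATAAA (9.95%) in that of Lipa. No member's window held the PPAR response element of the direct repeat type (0.0304% of all windows) or the C/EBP motif TTGCNNAA (8.78%). Both strands were searched. A match of letters is a description of the sequence and not a binding site.

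The libraries held 13956786 to 17538044 estimated counts each. Adcy3 stood at 21.9 to 30.3 CPM in knockouts and at 135 to 169 CPM in controls (log2 fold change -2.60; edgeR adjusted p = 0.00146). CPM is the usual depth-scaled count, a gene's count relative to its library's size, with sizes scaled by TMM, a method that sets libraries to a common scale. The markers of the labelled tissue were abundant: Ucp1 stood at 5398 CPM or more and Adipoq, an adipocyte hormone, at 287 to 347 CPM in every library. Skeletal muscle RNA differed between the groups and within them. The 20 muscle markers, among them Acta1 and Ckm, summed to 9540, 712 and 63.9 CPM in knockouts 1, 2 and 3 and to 15413 to 21193 CPM in controls. Knockout library 1 also stood apart from the other 5 libraries by transcript length. Across 14754 genes its deviation from the 6-library mean correlated with log10 transcript length at r = -0.36, against 0.02 to 0.14 in the other 5, a description across genes.

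The members differed widely in abundance, and Pnpla2 led in both genotypes. Levels of different genes are compared here as CPM per kilobase of exon. Pnpla2 stood at 976 ± 157 CPM per kilobase in knockouts and 794 ± 107 in controls (SD, n = 3 each). Mgll stood at 277 ± 17.0 CPM per kilobase in knockouts and 236 ± 8.22 in controls, and Lipe at 219.98 ± 2.10 in knockouts and 186 ± 19.3 in controls. G0s2 stood at 281 ± 197 CPM per kilobase in knockouts and 155 ± 32 in controls. Lipa and Abhd5 were the least abundant per length. Lipa stood at 32.5 ± 6.15 CPM per kilobase in knockouts and 27.8 ± 1.64 in controls, and Abhd5 at 22.7 ± 0.895 in knockouts and 22.5 ± 0.774 in controls.

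In knockouts the order per length was Pnpla2, G0s2, Mgll, Lipe, Lipa, Abhd5, and only the ranges of G0s2 and Mgll overlapped between neighbours. In controls it was Pnpla2, Mgll, Lipe, G0s2, Lipa, Abhd5, and only the ranges of Lipe and G0s2 overlapped. The place of G0s2 above Mgll and Lipe in knockouts came from 1 library, since Mgll and Lipe were both higher per length in the other 2. The distances within the pathway were large. Per length, there was 43.0 ± 7.90 times as much Pnpla2 as Abhd5 RNA in knockouts and 35.3 ± 4.62 times as much in controls (SD, n = 3 each). There was 4.28 ± 1.75 times as much Pnpla2 as G0s2 RNA per length in knockouts and 5.26 ± 1.20 times as much in controls. With the longest transcript in place of all exon bases, Mgll and Lipe overlapped in both groups and Lipe came before G0s2 in knockouts. On that length the ranges of Lipe and G0s2, and those of Lipa and Abhd5, overlapped in knockouts. Pnpla2 then stood at 1123 CPM per kilobase in knockouts and 914 in controls, and Abhd5 at 42.9 in knockouts and 42.4 in controls. The distance between Pnpla2 and Abhd5 was thus smaller with the longest transcript and depends on the length used.

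**Figure D1:**
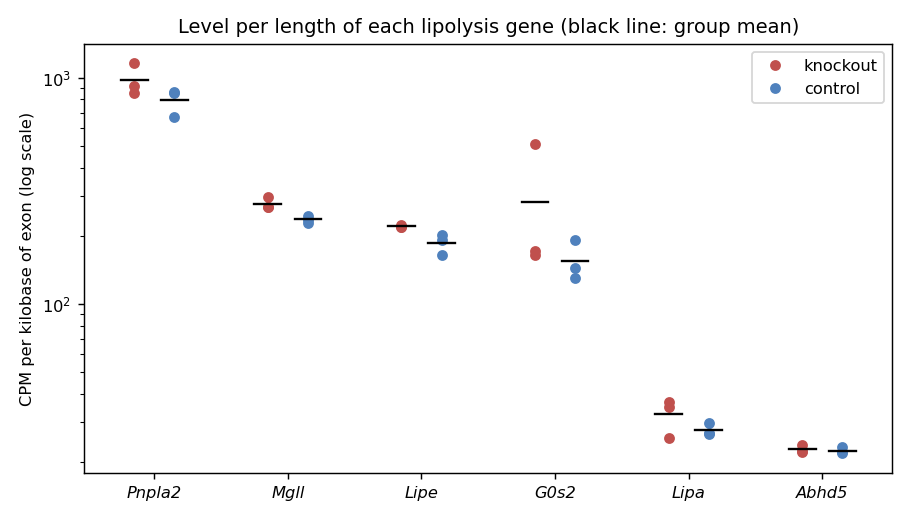
Level of each member as CPM per kilobase of exon (log axis) in 3 knockout libraries (red) and 3 control libraries (blue), with the group mean as a black line. Pnpla2 lies highest in both groups, at means of 976 and 794, and Abhd5 lowest at 22.7 and 22.5. For G0s2, 1 knockout library lies at 508, apart from the other 2.

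The comparison of genotypes asks how the lipolysis genes of cold-exposed brown fat differ when adipocytes lack Adcy3. None of the 6 members passed the test in either direction (edgeR quasi-likelihood test, Benjamini-Hochberg adjusted p under 0.05 over all 14767 genes). The background was low too: 9 genes passed, 0.0609% of those tested, with 4 higher (0.0271%) and 5 lower (0.0339%) in knockouts. None of the 6 members had an unadjusted p under 0.05, against 10.5% of all genes. The point estimates were all positive, with a median log2 fold change of 0.24, against 0.01 over all genes, of which 51.7% were positive; that of Abhd5 was 0.02 and turned to -0.00404 with the 10 most abundant genes left out of scaling. Adipocyte markers were positive as well, 6 of 6 with a median of 0.21, and brown adipocyte markers 11 of 11 with a median of 0.34. Their part in the members' estimates was not tested beyond the levels relative to adipocyte markers. For 2 of the 6 members, Lipe and Mgll, every knockout library lay above every control library, as was so for 7.63% of all genes. No member had every knockout library below every control, against 10.8% of all genes. The samples are bulk tissue, in which a different number of adipocytes and a different amount of RNA per adipocyte cannot be told apart.

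**Figure D2:**
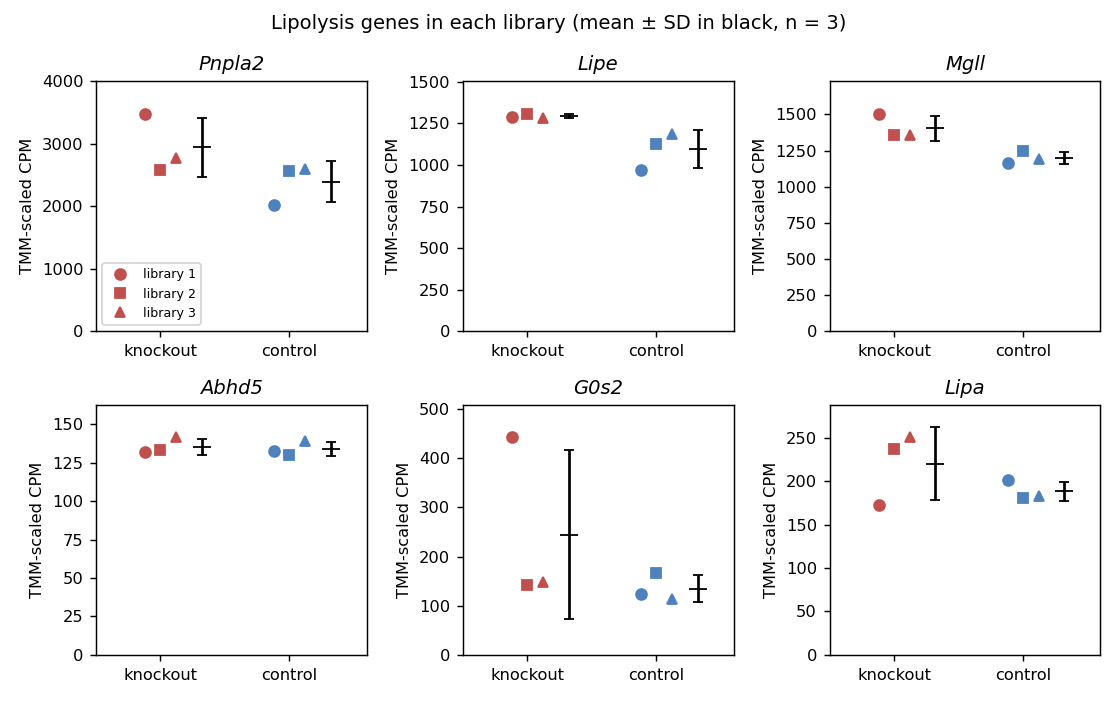
TMM-scaled CPM of each member in knockout libraries 1 to 3 (red) and control libraries 1 to 3 (blue; circle, square and triangle for libraries 1, 2 and 3), with mean ± SD in black. All axes start at 0. The groups are apart for Lipe and Mgll, and knockout library 1 stands alone at 443 CPM for G0s2.

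Pnpla2, which starts the breakdown of droplet triglyceride, was among the most abundant transcripts of the tissue, at rank 34 of 14767 by mean CPM. It measured 3485, 2583 and 2775 CPM in knockouts 1, 2 and 3, against 2024, 2568 and 2602 CPM in controls 1, 2 and 3. Knockout library 1 was the highest and control library 1 the lowest, and the other 4 libraries lay close together with the groups overlapping. The means were 2948 ± 475 CPM in knockouts and 2398 ± 324 CPM in controls (SD, n = 3 each). Knockout over control gave a log2 fold change of 0.30 (SE 0.15; 95% interval -0.06 to 0.65; edgeR adjusted p = 0.556). Without knockout library 1 it was 0.16 (edgeR adjusted p = 0.599), and without control library 1 it was 0.17 (edgeR adjusted p = 0.897). With muscle markers as a covariate it was 0.48 (edgeR adjusted p = 0.348). That covariate, the mean log2 CPM of the muscle markers, was 8.27, 4.54 and 0.765 in knockouts 1, 2 and 3 and 8.96 to 9.42 in controls. The score differed between the genotypes, and of the knockouts only library 1 lay near the controls. The covariate fit therefore cannot clearly separate muscle from genotype.

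Lipe, the lipase that protein kinase A phosphorylates, had the smallest spread among knockouts relative to its mean. It measured 1291, 1309 and 1285 CPM in knockouts 1, 2 and 3, against 969, 1129 and 1189 CPM in controls 1, 2 and 3. All 3 knockouts lay above all 3 controls, and the knockouts were closer to each other than the controls were. The means were 1295 ± 12.4 CPM in knockouts and 1096 ± 113 CPM in controls (SD, n = 3 each), 18.2% higher in knockouts. Knockout over control gave a log2 fold change of 0.24 (SE 0.12; 95% interval -0.03 to 0.51; edgeR adjusted p = 0.526). Without control library 1, the lowest, it was 0.15 (edgeR adjusted p = 0.894).

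Mgll, which completes the pathway, measured 1505, 1355 and 1355 CPM in knockouts 1, 2 and 3, against 1161, 1244 and 1190.4 CPM in controls 1, 2 and 3. The groups did not overlap, and knockout library 1 was the highest of the 6. The means were 1405 ± 86.4 CPM in knockouts and 1199 ± 41.8 CPM in controls (SD, n = 3 each), 17.2% higher in knockouts. Knockout over control gave a log2 fold change of 0.23 (SE 0.11; 95% interval -0.02 to 0.48; edgeR adjusted p = 0.510). Mgll had the smallest p of the members, at rank 1836 of 14767 genes.

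Abhd5, the coactivator of Pnpla2, was the member closest to equal between the genotypes. It measured 132, 133 and 142 CPM in knockouts 1, 2 and 3, against 133, 130.1 and 139 CPM in controls 1, 2 and 3. The groups lay on top of each other. The means were 135 ± 5.33 CPM in knockouts and 134 ± 4.61 CPM in controls (SD, n = 3 each). Knockout over control gave a log2 fold change of 0.02 (SE 0.11; edgeR adjusted p = 0.977). The 95% interval ran from -0.24 to 0.27, that is from 0.848 to 1.21 times the control level.

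G0s2, the inhibitor of Pnpla2, had the largest estimate and the largest spread. It measured 443, 143 and 149 CPM in knockouts 1, 2 and 3, against 125, 166 and 113 CPM in controls 1, 2 and 3. Knockout library 1 was 3.03 times the mean of the other 2 knockouts, which lay inside the range of the controls. The means were 245 ± 171 CPM in knockouts and 135 ± 27.9 CPM in controls (SD, n = 3 each). Knockout over control gave a log2 fold change of 0.86 (SE 0.43; 95% interval -0.12 to 1.85; edgeR adjusted p = 0.536). Without knockout library 1 it was 0.12 (edgeR adjusted p = 0.792), and with muscle markers as a covariate it was 1.69 (edgeR adjusted p = 0.0923). That covariate fit cannot clearly separate muscle from genotype, as said for Pnpla2. Without the low-count filter the G0s2 estimate passed (log2 fold change 0.87, edgeR adjusted p = 2.50e-05), and the cause was not tested. The next gene on the other strand, Lamb3, overlaps the span of G0s2 but shares no exon base with it.

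The high G0s2 value was in knockout library 1, the library with the length trend. The 932 tested genes with a longest transcript under 1000 bases had a median deviation of 0.44 (log2) in that library, and between -0.16 and 0.01 in the other 5. G0s2 deviated by 1.40 in knockout library 1, where the trend of length and GC content for a gene like it was 0.47. Correcting every library for that trend, a fit added after the data were seen, gave G0s2 a log2 fold change of 0.62 (edgeR adjusted p = 0.376). Pnpla2 deviated by 0.40 in that library, against a trend of 0.15. Its log2 fold change after the correction was 0.30 (edgeR adjusted p = 0.232), the same as in the main fit. Lipe and Mgll each stood at 0.31 and Lipa at 0.18 after the correction, and no member passed. The part of the trend in these deviations was not tested beyond this fit.

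**Figure D3:**
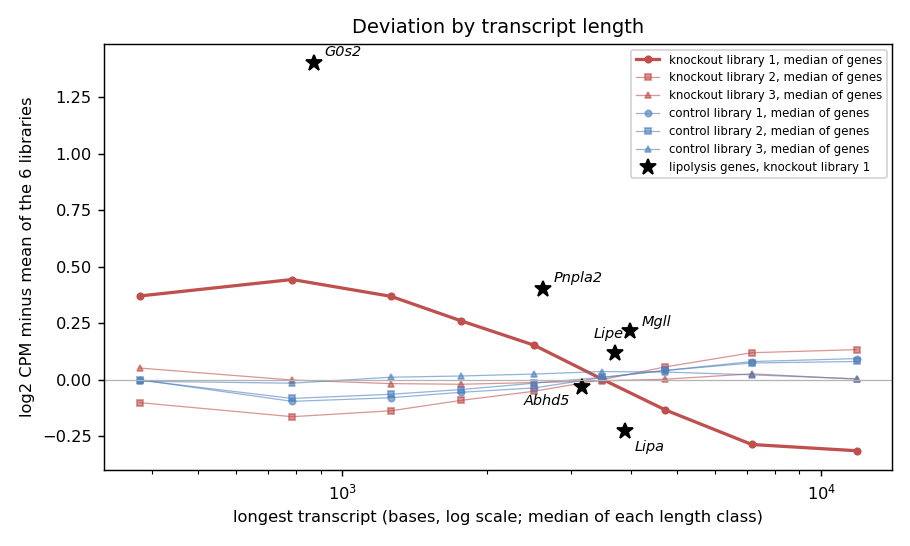
Deviation of log2 CPM from the mean of the 6 libraries against the longest transcript in bases (log axis), as the median of tested genes in each of 9 length classes for each library (lines), and for the 6 members in knockout library 1. The knockout library 1 line (thick red) runs from 0.37 in the shortest class to -0.32 in the longest, and G0s2 lies above it at 1.40 (black stars mark the members).

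Lipa, the lysosomal lipase, measured 173, 237 and 250.4 CPM in knockouts 1, 2 and 3, against 201, 181 and 183 CPM in controls 1, 2 and 3. Knockout library 1 was the lowest of all 6, and knockout libraries 2 and 3 were the highest. The means were 220.1 ± 41.7 CPM in knockouts and 188 ± 11.1 CPM in controls (SD, n = 3 each). Knockout over control gave a log2 fold change of 0.23 (SE 0.16; 95% interval -0.15 to 0.60; edgeR adjusted p = 0.679). Without knockout library 1 it was 0.37 (SE 0.11; edgeR adjusted p = 0.0869), the smallest adjusted p of any member in that fit. In it 45 genes were called higher, 0.296% of 15188, and 812 lower, 5.35%. The groups of Lipa were then apart, as were those of Lipe and Mgll, 3 of the 6 members, against 15.2% of all genes with every knockout above every control. With muscle markers as a covariate the Lipa estimate was -0.12 (edgeR adjusted p = 0.807), in a fit that cannot clearly separate muscle from genotype. Macrophages also express Lipa, and their 14 markers summed to 194, 105 and 94.6 CPM in knockouts 1, 2 and 3. In controls 1, 2 and 3 the sums were 190, 143 and 223 CPM, with none of the 14 at 0 in any library. Adgre1 and Cd68, which define macrophages, averaged 3.82 and 4.14 CPM in knockouts and 5.46 and 4.53 CPM in controls. The part of macrophages in the level of Lipa was not tested.

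**Figure D4:**
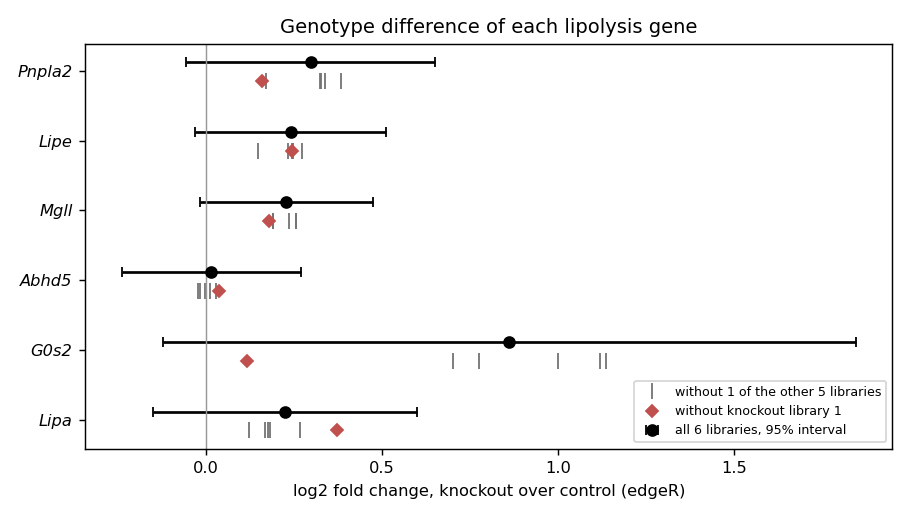
The edgeR log2 fold change of each member, knockout over control, with its 95% interval (black), and the same estimate without knockout library 1 (red diamond) or without 1 of the other 5 libraries (grey ticks). Every black interval includes 0. Leaving out knockout library 1 moved G0s2 to 0.12 from 0.86 and Lipa to 0.37 from 0.23.

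Ratios within a library do not depend on how libraries are scaled, and 6 of them asked if members differed unequally. None separated the genotypes. The ratio of Pnpla2 to its inhibitor G0s2, per length, was 2.27, 5.22 and 5.36 in knockout libraries 1 to 3 and 4.67, 4.46 and 6.64 in control libraries 1 to 3. The groups overlapped, with knockout library 1 alone below all controls (difference in mean log2 ratio -0.37, exact two-sided permutation p = 0.6). Abhd5 to G0s2, the coactivator against the inhibitor, was 0.0435, 0.136 and 0.139 per length in knockouts 1 to 3 and 0.155, 0.114 and 0.180 in controls 1 to 3 (difference -0.65, exact permutation p = 0.4). That difference was -0.10 without knockout library 1. Pnpla2 to Abhd5 differed by 0.28 (exact permutation p = 0.3), by 0.13 without knockout library 1 and by 0.17 without control library 1. Lipe to Pnpla2, the ratio of the enzymes of the first steps, averaged 0.229 ± 0.0357 per length in knockouts and 0.235 ± 0.0102 in controls (SD, n = 3 each; exact permutation p = 0.9). Mgll to Lipe averaged 1.26 ± 0.0814 per length in knockouts and 1.28 ± 0.114 in controls (exact permutation p = 0.9). Lipa to Pnpla2 averaged 0.0344 ± 0.0107 per length in knockouts and 0.0357 ± 0.00746 in controls (exact permutation p = 0.8). Adjusted over the 6 ratios each exact permutation p became 0.9. With 3 against 3 the smallest p is 0.1, so no ratio could pass 0.05. Leaving out knockout library 1 turned the direction of Pnpla2 to G0s2 (0.03), Lipe to Pnpla2 (0.08) and Lipa to Pnpla2 (0.21).

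The 6 members together made up 0.602% ± 0.0563 of all counts in knockouts and 0.533% ± 0.0542 in controls (n = 3, SD; permutation p = 0.3, exact and two-sided). The difference of 0.0689 percentage points was 0.0365 without knockout library 1 and 0.0391 without control library 1. With mitochondrially encoded genes left out of the total it was 0.109, with every knockout above every control (exact permutation p = 0.1). Since muscle RNA took a larger part of the control libraries, each member was also set against 6 adipocyte markers (Adipoq, Pparg, Fabp4, Plin1, Cidec and Slc2a4) in the same library. On that scale the difference in mean log2 level was 0.10 for Pnpla2, 0.05 for Lipe and 0.03 for Mgll, each smaller than the spread of 1 SD among the controls. For Pnpla2 it was 0.03 without knockout library 1 and 0.02 without control library 1. For Lipe it was 0.11 without knockout library 1. With Adipoq as the only marker the differences were larger, at 0.22 for Pnpla2, 0.17 for Lipe and 0.15 for Mgll (exact permutation p of 0.2, 0.3 and 0.2). Lipe and Mgll, whose groups were apart in CPM, overlapped on the scale of the 6 markers. Relative to the 6 markers Abhd5 stood at -2.59, -2.37 and -2.34 (log2) in knockout libraries 1 to 3 and at -2.18, -2.32 and -2.25 in control libraries 1 to 3. Every knockout lay below every control, a difference of -0.18, with the smallest p that 3 against 3 allows (exact permutation p = 0.1, and 0.6 adjusted over the 6 members). With Adipoq as the only marker the groups of Abhd5 overlapped, with a difference of -0.06 (exact permutation p = 0.7), and without knockout library 1 the difference to the 6 markers was -0.10. Of all genes tested, 21.4% had every knockout below every control on the scale of the 6 markers and 1.37% every knockout above, so such a position was common. G0s2 differed by 0.47 and Lipa by 0.01, with overlapping groups. These were -0.0020 for G0s2 and 0.24 for Lipa without knockout library 1, and with Adipoq as the only marker 0.59 for G0s2 and 0.13 for Lipa.

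Over the 6 libraries the genes whose log2 CPM ran most like each member were named, out of 7699 genes with a mean of at least 10 CPM. These correlations describe 6 points that share 1 library of unusual length profile. As the 3 highest of 7699 for each member, they are high by selection, and a shared role was not tested. Pnpla2 was most like Cenpb, Ndufv1 and Tysnd1 (Pearson r of 0.99 for each). Ndufv1 encodes a subunit of respiratory complex I. Lipe was most like Aars, Mib2 and Lmf2 (r = 0.99), and Mgll most like Mccc2, Mapre3 and Taldo1 (r = 0.99). Mccc2 encodes a subunit of an enzyme of leucine breakdown, and Taldo1 encodes transaldolase of the pentose phosphate pathway. Abhd5 was most like Ccdc88a (r = 0.99), Sox7 (0.98) and Trim32 (0.97). G0s2 was most like Oxld1, Ahsa1 and Pstk (r = 0.99), each of them highest in knockout library 1. Ahsa1, a cochaperone of Hsp90, stood at 126, 93.3 and 92.6 CPM in knockouts and at 85.9, 92.2 and 82.6 CPM in controls. Lipa was most like Purb, Cdh2 and Seh1l (r = 0.99), each lowest in knockout library 1. Purb stood at 120, 167 and 169 CPM in knockouts and at 135, 123 and 125 CPM in controls. No member was among the 3 genes most like another member.

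The rest of the pathway was described from 6 lists, and none of their tested genes passed in either direction. The lists' counts are set beside all tested genes, of which 51.7% had a positive log2 fold change and the median was 0.01.

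Of 16 tested other hydrolases of neutral lipids, 10 were positive (median log2 fold change 0.06). Ces1d, a carboxylesterase that can act on triglyceride, stood at 878, 852 and 843 CPM in knockouts and 672, 689 and 718 CPM in controls (log2 fold change 0.31 ± 0.11, SE; edgeR adjusted p = 0.368). All knockouts lay above all controls, as in 2 of the 16, against 7.63% of all genes. Faah, which hydrolyses fatty acid amides, averaged 0.366 CPM in knockouts and 0.995 CPM in controls (-1.43 ± 0.45, SE; edgeR adjusted p = 0.318). Its counts were low, since 3 counts make 0.171 to 0.215 CPM in these libraries. Daglb, a diacylglycerol lipase, averaged 7.41 CPM in knockouts and 9.68 CPM in controls (-0.38 ± 0.15, SE; edgeR adjusted p = 0.437). Faah and Daglb were the 2 of the 16 with every knockout below every control, against 10.8% of all genes.

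Of 18 lipid droplet proteins, 14 were positive (median 0.15). Plin2, a droplet coat protein, stood at 2169, 1863 and 1777 CPM in knockouts and 1569.9, 1587 and 1500.3 CPM in controls. Cidea, which drives droplet fusion, averaged 1447 ± 239 CPM in knockouts and 1124 ± 48.3 CPM in controls (SD, n = 3 each). In both, the 3 knockouts lay above the 3 controls, and neither passed (edgeR adjusted p = 0.387 for Plin2 and 0.428 for Cidea). That position was held by 3 of the 18, against 7.63% of all genes, and the opposite by 0 of the 18, against 10.8%. Hilpda, which like G0s2 binds and inhibits Pnpla2, measured 6.63, 3.26 and 2.85 CPM in knockouts 1, 2 and 3 and 1.59, 2.92 and 2.28 CPM in controls 1, 2 and 3. It too was highest in knockout library 1, and its longest transcript has 982 bases (log2 fold change 0.90, edgeR adjusted p = 0.479).

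Of 34 tested genes of lipolytic and antilipolytic signalling, 21 were positive (median 0.06), and 8 had every knockout below every control, against 10.8% of all genes. In 3 of the 34 every knockout lay above every control, against 7.63% of all genes. An unadjusted edgeR p under 0.05 was reached by 10 of the 34, against 10.5% of all genes. Prkar2a, a regulatory subunit of protein kinase A, averaged 39.1 ± 5.29 CPM in knockouts and 63.4 ± 8.95 CPM in controls (SD, n = 3 each; log2 fold change -0.70; edgeR adjusted p = 0.174). Prkg1, a cyclic GMP-dependent kinase, averaged 4.09 ± 2.79 CPM in knockouts and 15 ± 6.15 CPM in controls (log2 fold change -1.88; edgeR adjusted p = 0.226). Without knockout library 1, Prkar2a, Prkg1 and the phosphodiesterase Pde4b fell, in a fit that called 5.35% of all genes lower. In that fit the log2 fold change was -0.80 for Prkar2a, -2.59 for Prkg1 and -1.10 for Pde4b (edgeR adjusted p of 0.00741, 0.00142 and 0.0272). In the same fit all 20 muscle markers fell (median log2 fold change -5.68), as did 6 of 8 fibroblast and 4 of 14 macrophage markers, and their part in these genes was not tested. Pde4b was named after its values were seen.

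Fitm1, a droplet protein gene that is also a muscle gene, fell in that fit as well (-5.47, edgeR adjusted p = 0.000152). Its level was 17.5, 0.848 and 0 CPM in knockouts 1, 2 and 3 and between 16.0 and 20.5 CPM in controls. Among knockouts it was highest in library 1, as were the summed muscle markers. It was named after its values were seen.

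**Figure D5:**
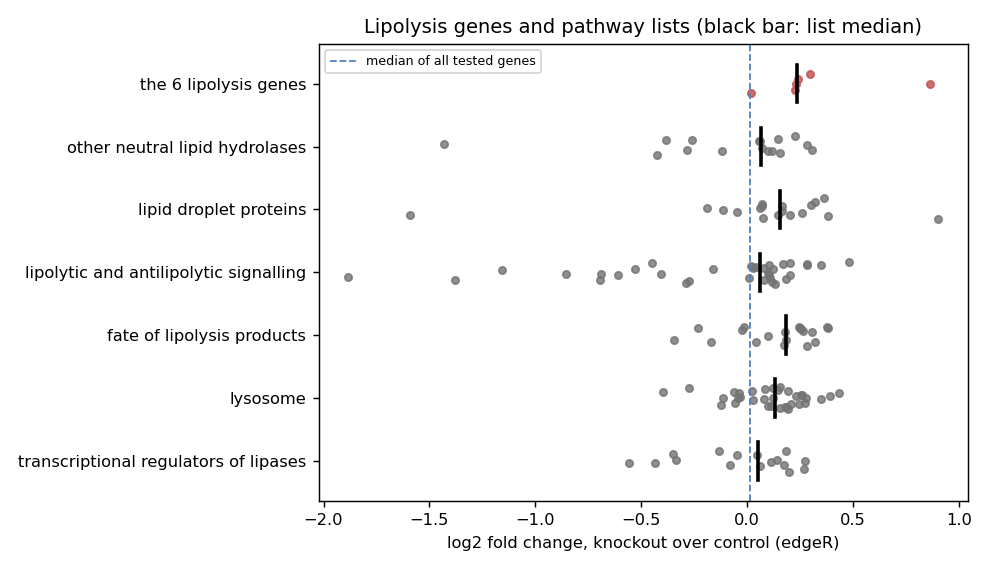
The edgeR log2 fold change, knockout over control, of each tested gene in the 6 members (red) and the 6 pathway lists (grey), with the list median as a black bar and the median of all tested genes as a dashed line. The members' median of 0.24 is above the medians of 0.05 to 0.19 of the 6 lists drawn, which do not include the adipocyte markers, and none of the genes drawn passed the test.

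Of 19 tested genes that handle the products of lipolysis, 14 were positive (median 0.19). Aqp7, the channel through which glycerol leaves adipocytes, stood at 201, 193 and 229 CPM in knockouts and 155, 151 and 171 CPM in controls (log2 fold change 0.38 ± 0.13, SE; edgeR adjusted p = 0.339). Agpat2, an acyltransferase of triglyceride synthesis, averaged 1411 ± 123 CPM in knockouts and 1141 ± 44.0 CPM in controls, and Acsl5, which activates fatty acids, 1269 ± 140 CPM in knockouts and 977 ± 130 CPM in controls (SD, n = 3 each). All 3 had every knockout above every control, as had 5 of the 19, against 7.63% of all genes.

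Lipa's organelle was described by 34 lysosomal genes, all tested, of which 25 were positive (median 0.13). In 11 of the 34 every knockout lay above every control, against 7.63% of all genes, and in none below, against 10.8%. Without knockout library 1 these counts were 13 above and 2 below, against 15.2% above and 19% below over all genes in that fit. Atp6v1h, a subunit of the lysosomal proton pump, averaged 105 ± 4.0 CPM in knockouts and 79.8 ± 2.78 CPM in controls (log2 fold change 0.39 ± 0.11, SE; edgeR adjusted p = 0.269). Tfe3, a transcription factor of lysosomal genes, averaged 40.1 ± 1.53 CPM in knockouts and 33.2 ± 2.50 CPM in controls, and the protease Ctsb 1389 ± 83.9 CPM in knockouts and 1148 ± 95 CPM in controls (SD, n = 3 each). Lipa itself overlapped between the groups.

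Of 16 transcriptional regulators known to act on lipase genes, 9 were positive (median 0.05), and none had an unadjusted p under 0.05. Foxo3 averaged 10.9 ± 3.04 CPM in knockouts and 14.8 ± 1.06 CPM in controls (log2 fold change -0.43; edgeR adjusted p = 0.539). It was the 1 gene of the 16 with every knockout below every control, against 10.8% of all genes. None of the 16 had every knockout above every control, against 7.63%. Pparg, the master regulator of adipocyte genes, averaged 183 ± 15.9 CPM in knockouts and 151 ± 20.9 CPM in controls (0.27; edgeR adjusted p = 0.558). Nr1h3, the oxysterol receptor LXR alpha, averaged 73.0 ± 5.72 CPM in knockouts and 63.7 ± 9.29 CPM in controls (0.20; edgeR adjusted p = 0.673). Pparg and Nr1h3 had overlapping groups.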

How the data were processed

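Polyadenylated RNA of interscapular brown fat from knockout and control mice was sequenced as 3 paired-end libraries a group with an NEBNext kit, as the labels' protocols state. The authors deposited 1 table of estimated counts, with fractional values and column sums that differ, so without normalization. The submitters' processing notes name StringTie, Salmon, edgeR and GRCm38. Versions, settings, annotation release and strand setting were not given in those notes or in the file. Columns were matched to samples by the sample descriptions, and 54131 of 54385 identifiers had a symbol in GENCODE vM21.

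Counts were rounded, filtered with filterByExpr (minimum count 10, minimum total 15) and tested on genotype alone with edgeR 4.0.16 in R 4.3.3 (TMM factors, glmQLFit and glmQLFTest, Benjamini-Hochberg adjusted p under 0.05 over 14767 genes). A standard error is the estimate over the square root of its F, and 95% intervals use the test's degrees of freedom. The fit was tested on simulated data with known changes, which held no length trend and no muscle difference between libraries. CPM per kilobase divides by the union of a gene's GENCODE exons, so shares of isoforms can move it. Ratios and shares were compared by exact two-sided permutation over samples. Members had 1686 to 51479 estimated counts per library, a counting error of at most 2.44%, well under the spread between replicates of most members. Between libraries of 1 group, chi-square was at least 10.8 times its degrees of freedom, above sampling noise, so none was counted as a copy. The labels number the replicates without saying that each is a separate mouse, so p-values cover the spread between samples, which may be technical.

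The members and lists were chosen with earlier results of these data known. Named genes were the members, Adcy3, defining markers, the 3 genes of each list with the smallest p or any that passed, and the 3 genes most like each member; 1 gene named by this rule is not reported here. Also tried were size factors by RLE or the upper quartile, DESeq2 1.42.0, limma-voom (limma 3.58.1), robust dispersion, other low-count filters, a replicate block, each library left out, other genes for scaling, unrounded counts, a muscle score covariate, Adipoq as the only adipocyte marker, shares without mitochondrially encoded genes, the longest transcript as length, an adjusted p under 0.1 and a length and GC correction, the last added after seeing the data.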

Additional observations from a re-analysis of the deposited data

How the results depend on the processing

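In 21 alternatives to the fit, 118 of 126 member estimates kept their direction and their side of the threshold, with Pnpla2, Lipe, Mgll and G0s2 positive in all 21. Robust dispersion and an adjusted p under 0.1 had the same estimates as the main fit, so there the direction could not differ. The ranges were 0.16 to 0.48 for Pnpla2, 0.15 to 0.31 for Lipe and 0.18 to 0.32 for Mgll. G0s2 (0.12 to 1.69) passed without the low-count filter (0.87), where its SE was 0.17 against 0.43 in the main fit, and the cause was not tested. Lipa was negative in the fit with muscle markers as covariate (-0.12), which cannot clearly separate muscle from genotype. Abhd5 was negative with that covariate (-0.0518), with the 10 most abundant genes left out of scaling (-0.00404) and with the length and GC correction (-0.0251), and ranged from -0.0226 to 0.037 with 1 library left out.

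The count of genes called moved from 4 higher and 5 lower to 32 and 262 with DESeq2, 7 and 39 with robust dispersion, 111 and 782 without the low-count filter, 9 and 8 with the muscle covariate, and 7 and 39 at an adjusted p under 0.1. With limma-voom 27 were lower. Leaving out 1 library gave 3 to 45 higher and 1 to 812 lower, the highest without knockout library 1. The cause was not tested.

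With the replicate number as a block, 2 genes were called higher and 2 lower, and no member passed (G0s2 0.66, edgeR adjusted p = 0.693). Deviations from the group mean correlated at 0.05 to 0.11 for same-numbered libraries, and each library correlated best with its own number. Deviations within a group balance out, so these correlations depend on each other and cannot decide if libraries were paired. The labels do not state a pairing.

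Leaving out 1 library moved the log2 ratio difference of Pnpla2 to G0s2 between -0.587 and 0.033, Abhd5 to G0s2 between -0.94 and -0.10, Pnpla2 to Abhd5 between 0.13 and 0.36, Lipe to Pnpla2 between -0.146 and 0.0801, Mgll to Lipe between -0.0842 and 0.0452, and Lipa to Pnpla2 between -0.24 and 0.21. Relative to adipocyte markers it moved Lipe between -0.000413 and 0.111, G0s2 between -0.0020 and 0.713, and Lipa between -0.11 and 0.24. With the longest transcript as length, levels in CPM per kilobase were 914 for Pnpla2 in controls. In knockouts and controls they were 349 and 295 for Lipe, 352 and 300.3 for Mgll, 42.9 and 42.4 for Abhd5, and 56.5 and 48.4 for Lipa. Counting error was at most 2.44% for any member, and with 3 libraries a group the spread between libraries set the intervals.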
